A study of Mus musculus with 6 samples.

Results

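In the mouse chondrocyte precursor line ATDC5, 352 open chromatin regions were strong at day 0. By day 3 they had no peak among the 100000 strongest, and they had none at day 10 either. They are called early-lost regions here. They were chosen from the authors' fold over background of each ATAC-seq peak on chromosomes 1 to 19 and X. Peaks were ordered by fold within each library, overlapping peaks from the 50000 strongest of all 6 libraries were merged into 73933 regions, and an early-lost region had 1 of the 50000 strongest peaks in both Day0 libraries and none of the 100000 strongest in any Day3 or Day10 library. The early-lost regions were 0.476% of all merged regions and 0.78% of the 45155 regions strong in both Day0 libraries.

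ATAC-seq marks open chromatin, where the Tn5 transposase can insert sequencing adapters because nucleosomes are absent or moved aside. Such sites are mostly promoters, enhancers and insulators, and as precursor cells differentiate, enhancers of the earlier state commonly lose their accessibility. ATDC5 cells grow as precursors and deposit a cartilage-like matrix when differentiated. The study compared 3 time points of this change, with 2 libraries per day. The Day0 libraries are labelled control and the Day3 and Day10 libraries differentiation. Per the labels' protocols all were grown as dense droplet cultures, the differentiation medium held beta-glycerophosphate and ascorbate-2-phosphate, and unfixed cells were snap frozen before the Tn5 reaction. The labels call the replicates of each day independent biological replicates of this single cell line.

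The word closed would be too strong for most of these regions. A peak of some rank was still listed in at least 1 Day3 library for 322 of the 352 and no Day10 library listed a peak for 151. Only 22 had no listed peak in any of the 4 later libraries. The early-lost regions are thus regions whose signal became weak, and for 22 of them fell under the authors' listing threshold on both later days. The files carry scaffold names of the mouse build GRCm39, and positions below are read as that build, counted from 1. No gene annotation or sequence of GRCm39 was used here, so the regions are named by position and were not assigned to genes, promoters, exons or introns.

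The lists differ in length and depth, which bears on every comparison below. On the chromosomes used, the Day0 lists held 164237 and 164579 peaks, the Day3 lists 177334 and 176710 and the Day10 lists 380813 and 389571. The fold at rank 100000 was 6.67 and 7.23 at Day3 but 10.07 and 10.23 at Day10, so an early-lost region could keep a higher fold at Day10 than at Day3. The folds of each library were whole multiples of a step. Each was read as a whole-number pileup of reads plus 1, divided by the library's background plus 1. The plus 1 was assumed, since no peak caller was given, and all pileups and backgrounds here rest on it. The smallest listed pileup was 5 reads in each of the 6 libraries, while the background in reads was 0.7165 and 0.7308 (Day0), 0.7985 and 0.7984 (Day3), and 1.0845 and 1.1515 (Day10). The smallest listed fold was therefore lower at Day10, 2.88 and 2.79, than at Day3, 3.34 in both. Only the Day3 lists carry the word lysis in their peak names. The labels do not say what it stands for, so day 3 and whatever it marks cannot be told apart. The narrowest listed peak had 68 and 72 bases at Day10, against 87 to 90 elsewhere, a difference in the lists that cannot be told apart from the day.

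At Day0 the early-lost regions were open, but they were not among the most open regions. Their fold had a median of 19.81 in replicate 1, with a range from 16.89 to 37.28, and a median of 19.64 in replicate 2, with a range from 17.33 to 40.44. Those medians correspond to pileups of 33 reads in each Day0 library. The 28367 regions strong in all 6 libraries had median folds of 34.95 and 35.82 at Day0.

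At Day3 a peak was still listed for 299 of the 352 early-lost regions in replicate 1 and for 302 in replicate 2. The median fold of these listed peaks was 5.56 in both libraries, from 3.89 to 6.67, a pileup of 9 reads. For the 279 regions listed in both Day3 libraries, the ratio of the mean Day0 fold to the mean Day3 fold had a median of 3.5 and ranged from 2.56 to 6.08. The median fold of the regions strong in all 6 libraries moved far less, to 31.69 and 32.25. No early-lost region kept more than 50% of its Day0 fold in the Day3 library of the same number. These drops are those the rule asked for, so they describe the members and were not tested.

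At Day10 fewer early-lost regions had a listed peak, 187 in replicate 1 and 194 in replicate 2. The median fold of the listed peaks was 5.76 and 5.58, a pileup of 11 reads in each library, and the range ran from 3.36 to 10.07 and from 2.79 to 9.76. The regions strong in all 6 libraries had median folds of 29.74 and 30.21. More than 50% of the fold in the Day0 library of the same number was kept by 6 early-lost regions in Day10 replicate 1 and by 5 in replicate 2. In both Day10 libraries 28 of the early-lost regions had a fold above 7.23, the larger of the Day3 folds at rank 100000. These 28 were still members because the fold at rank 100000 was higher at Day10, at 10.07 and 10.23.

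**Figure D1:**
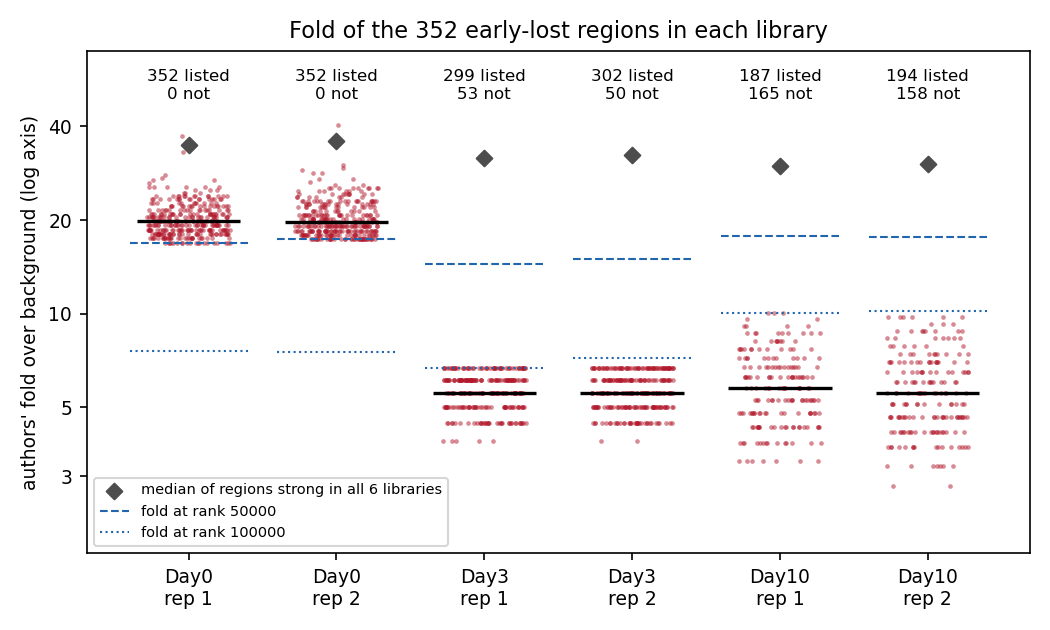
Authors' fold over background (log axis) of each of the 352 early-lost regions in each library, with the number listed and not listed above it. Black bars are medians of listed peaks, diamonds the medians of the 28367 regions strong in all 6 libraries, and blue lines the folds at ranks 50000 and 100000: listed early-lost regions sit near 20 at Day0 and near 5.6 later, while the diamonds stay between 29.74 and 35.82.

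The 10 early-lost regions with the best worse rank of the 2 Day0 libraries show how single sites behaved. The strongest lay on chromosome 4 from 47200097 to 47200686. Its Day0 folds of 37.28 and 40.44 were followed by 6.67 and 6.12 at Day3, and no peak was listed in either Day10 library. The pileups fell from 63 and 69 reads to 11 and 10 by Day3. It was the only early-lost region with a worse Day0 rank better than 20000, at ranks 13551 and 10811.

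The next on the list, on chromosome 9 from 57557758 to 57558103, followed the same course, with folds of 27.96 and 28.31, then 6.12 and 6.67 at Day3, and no listed peak at Day10. Then, on chromosome 15, the site from 44469498 to 44469798 had folds of 25.63 and 25.42, then 6.67 and 5.56, and had no Day10 peak. The region on chromosome 19 from 37726859 to 37727404 had folds of 27.38 and 25.42 at Day0 and was listed later in Day3 replicate 1 alone, at 5.0. In these 4 regions the signal went from weak at Day3 to not listed in either Day10 library.

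A pair of the 10 regions was listed in only 1 Day10 library. The region on chromosome 9 from 25501992 to 25502452 had Day0 folds of 25.63 and 25.42, Day3 folds of 5.56 and 4.45, and 3.72 in Day10 replicate 2. The region on chromosome 19 from 10312888 to 10313395 had 26.8 and 25.42, then 6.12 in both Day3 libraries, and 4.18 in Day10 replicate 2. In each region the only listed Day10 value lay below both Day3 values.

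The 4 others were listed in both Day10 libraries. On chromosome 16 from 25286769 to 25287137 the fold went from 26.8 and 29.47 to 6.12 and 6.67 by Day3 and to 4.32 and 4.65 by Day10. On chromosome 5 from 35819326 to 35820307 it was 25.63 and 30.04, then 6.12 and 6.67, then 8.64 and 8.83. On chromosome 3 from 19236565 to 19236905 it was 25.05 and 27.16, then 5.0 and 6.12, then 6.72 and 6.51. In the regions on chromosomes 5 and 3 both Day10 folds were above both Day3 folds, while remaining far below Day0. A further region of chromosome 5, from 111019741 to 111020192 had the opposite order of listing, with 33.21 and 25.42 at Day0, no listed peak at Day3, and 5.28 and 4.65 at Day10.

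The 10 regions above were picked for their Day0 rank, and none of them belongs to the 22 early-lost regions with no later listed peak. The strongest of these 22 lay on chromosome 5 from 92137096 to 92137520, with Day0 folds of 23.89 and 20.8 and pileups of 40 and 35 reads. The next were on chromosome 1 from 194370576 to 194370793, with 20.39 and 20.8, and on chromosome 11 from 75613200 to 75613556, also with 20.39 and 20.8. On chromosome 7 from 112007524 to 112007823 and on chromosome 16 from 24866533 to 24866994 the folds were 20.39 and 19.64. For each of these 5 sites the later signal lay under the authors' threshold, which does not show that it was 0.

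At the edges of the rule, members and non-members could hardly be told apart. The early-lost region on chromosome 7 from 15942681 to 15943009 ranked 49907 in Day0 replicate 1, and the excluded region on chromosome 8 from 122203756 to 122203965 ranked 50087 there, both at a fold of 16.89. At the Day3 limit, the member on chromosome 1 from 181138230 to 181138612 ranked 100002 in replicate 1, and the non-member on chromosome 1 from 134119004 to 134119268 ranked 99824, both at 6.67. At the Day10 limit, the member on chromosome 9 from 62204200 to 62204566 and the non-member on chromosome 4 from 133961987 to 133962502 shared folds of 10.07 and 9.76. Of the 352 members, 104 had the tied fold of a limit in at least 1 library, so their place was set in part by chromosome order. With chromosomes in text order among ties the number was 357.

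Most early-lost regions came from the lower end of the strong class. None had a worse Day0 rank of 10000 or better, 1 lay between 10000 and 20000, 3 between 20000 and 30000, 70 between 30000 and 40000 and 278 between 40000 and 50000. As shares of the Day0-strong regions of each class these were 0.0%, 0.0108%, 0.0326%, 0.787% and 3.07%. A region near rank 50000 needs a smaller drop to meet the rule, so part of this gradient is built into the choice. The gradient was not particular to early-lost regions. Regions lost by Day10 and intermediate at Day3 rose likewise, at 0.0115%, 0.613%, 5.49%, 14.6% and 22.1% in the same order of classes. The regions lost by Day10 that were still strong at Day3 were spread otherwise: they were 4.69%, 6.8%, 6.09% and 3.69% of the 4 classes beyond rank 10000. With strong set at the top 40000 in place of 50000, 74 early-lost regions were left.

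**Figure D2:**
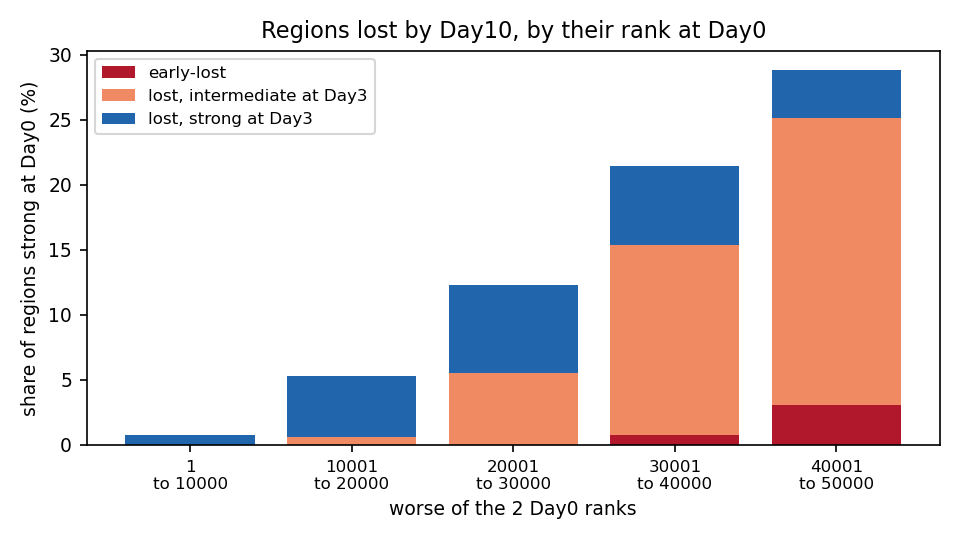
Share of Day0-strong regions (%) that were lost by Day10, in classes of the worse of the 2 Day0 ranks, split by state at Day3. The early-lost share, at the foot of each bar, is 3.07% in the last class and at most 0.787% in the others. The share intermediate at Day3 rises likewise, to 22.1% in the last class, whereas the share that was still strong at Day3 peaks at 6.8% in the middle class.

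Whether an early drop lasted was read from the Day10 libraries, with regions chosen from Day0 and Day3 alone. Of all merged regions, 405 (0.548%) were strong at Day0 and out of the 100000 strongest in both Day3 libraries. At Day10, 352 of the 405 were out in both libraries, 86.9% (exact binomial interval 83.2% to 90.0%, which covers counting error only). By library, 88.6% were out in replicate 1 and 87.9% in replicate 2. Only 10 of the 405, or 2.47%, were strong in both Day10 libraries.

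The shares were smaller for the other Day0-strong regions. Of the 7491 that were neither strong nor out at Day3, which include regions on which the Day3 libraries differed, 51.6% were out at Day10 and 14.8% strong. Of the 37259 that were strong at Day3, 5.38% were out and 76.1% strong. The order was the same among regions with a worse Day0 rank over 40000, at 88.3%, 51.2% and 6.93% out. It was also the same in each Day10 library. These differences were not tested: with 2 libraries per day a two-sided permutation could not pass 0.05, and regions of the same library are not replicates.

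**Figure D3:**
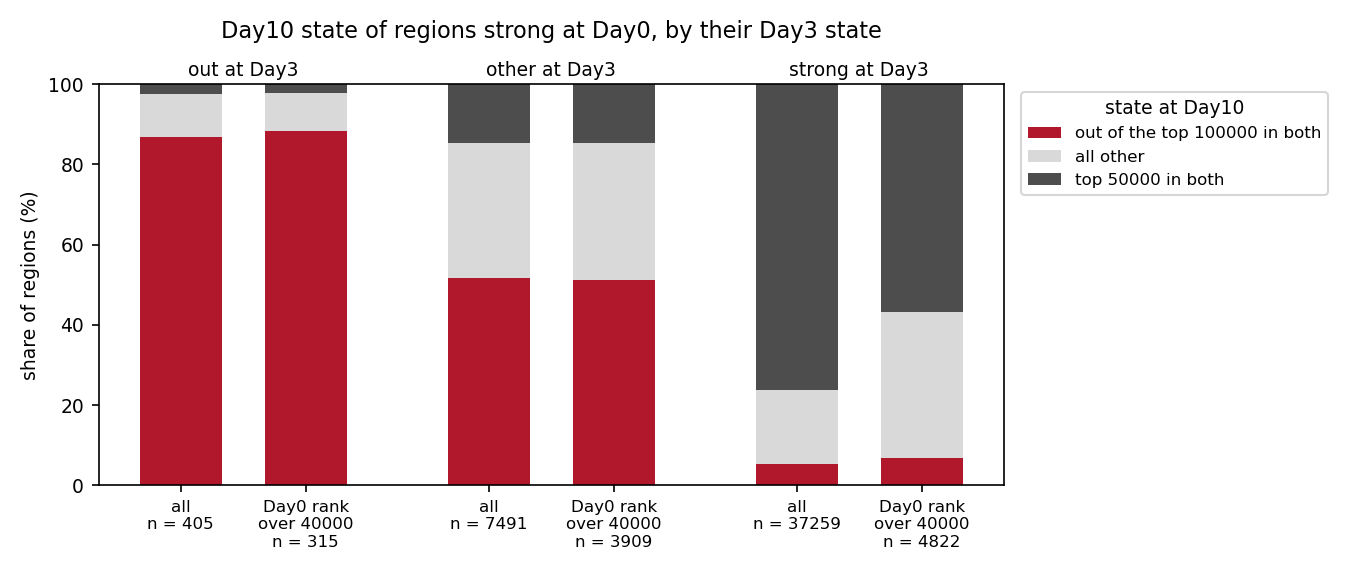
State at Day10 (% of regions) of regions strong at Day0, grouped by their state at Day3, for all regions and for those with a worse Day0 rank over 40000. The share out in both Day10 libraries (red) falls from 86.9% for regions out at Day3 to 51.6% for the intermediate ones and 5.38% for those still strong, with nearly the same steps in the subset.

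Seen from Day10, early loss was the less common course. Of the 6220 regions lost by Day10 from the Day0-strong class, 8.41% of all merged regions, 352 were out in both Day3 libraries, 3865 were in neither class at Day3 and 2003 were still strong at Day3. The early-lost regions were thus 5.66% of the regions lost by Day10. The 3865 had already weakened by Day3, from median folds of 21.55 and 21.96 at Day0 to 11.12 in both Day3 libraries. More than 50% of the Day0 fold was kept by 1939 of them in Day3 replicate 1 and by 1924 in replicate 2. In the other direction, 280 regions, 0.379% of all, were out at Day0 and strong in all Day3 and Day10 libraries.

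The level that regions reached at Day10 also differed between these classes of lost region. All 3 had to be out of the 100000 strongest there, and the rule asked nothing more of them at Day10. A peak was listed for 53.1% and 55.1% of the early-lost regions in the Day10 libraries. It was listed for 77.3% and 78.8% of those intermediate at Day3, and for 93.3% and 93.8% of those still strong at Day3. Of all merged regions, 97.7% and 97.8% were listed at Day10.

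The same order held at a like starting level. Among regions with a worse Day0 rank over 40000, the Day0 medians were 19.22 and 19.07 for the early-lost, 19.22 and 19.64 for the intermediate, and 19.81 and 20.22 for the later-lost regions. At Day10, 51.4% and 52.5% of the early-lost regions were listed, against 76.7% and 78.0% and against 94.3% and 94.9%. The exact binomial intervals did not overlap between the classes in either library, with 45.4% to 57.5% for the early-lost and 74.8% to 78.5% for the intermediate regions in replicate 1. These intervals cover counting error only and treat regions as independent, which neighbouring sites may not be.

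**Figure D4:**
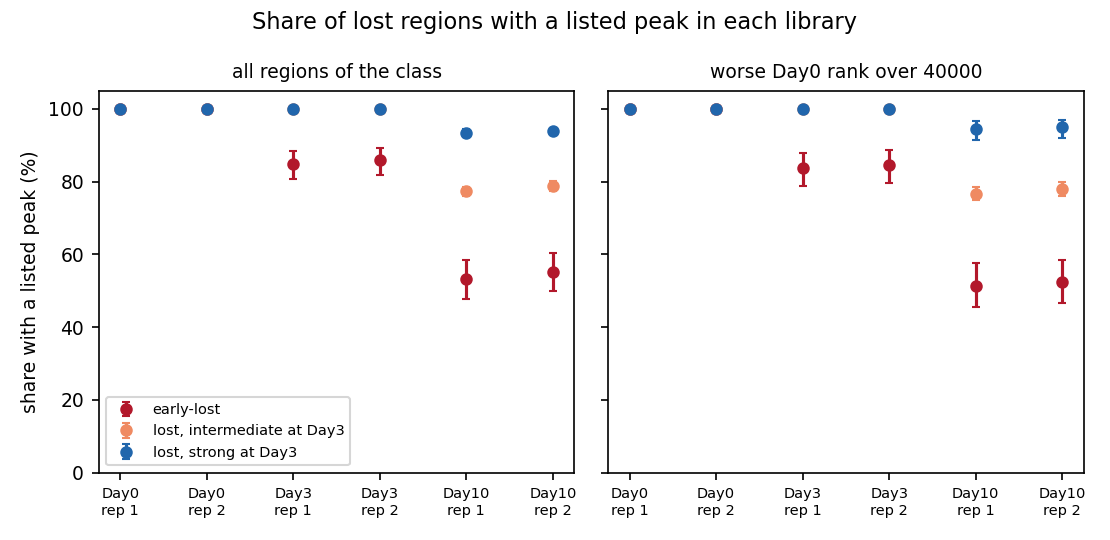
Share of regions (%) with a listed peak of any rank in each library, for early-lost regions and for the 2 classes lost later, over all regions and over those with a worse Day0 rank over 40000. Bars are exact binomial intervals for counting error: at Day10 the early-lost regions lie at 53.1% and 55.1%, under the intermediate (77.3% and 78.8%) and later-lost regions (93.3% and 93.8%).

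Whether signal moved between Day3 and Day10 depended on the scale. The early-lost regions cannot show it, since the rule capped their Day10 rank, so all 405 regions chosen from Day0 and Day3 were used. With a region not listed counted as lower than any listed value, both Day10 folds were below both Day3 folds in 181 of the 405, or 44.7%, and above them in 124, or 30.6%. In pileups, which are not divided by the larger Day10 background, the counts were 146 below and 153 above, so the excess of falling regions was not seen on that scale. The rule removed 53 of the 405 from the early-lost regions, all of them for their Day10 ranks. Of the 405, 109 were listed in both Day3 libraries and in neither Day10 library, and 8 the other way round. The 152 early-lost regions listed in all 6 libraries had median folds of 6.12 in both Day3 libraries and of 5.76 and 5.58 in the Day10 libraries. The rule and the need to be listed bound these values on both days, so they do not show whether the level moved.

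How well single libraries agreed was read by choosing regions in the replicate 1 libraries alone and looking them up in replicate 2. Of 722 regions so chosen, 70.8% were strong in Day0 replicate 2, 71.3% were out in Day3 replicate 2 and 97.2% were out in Day10 replicate 2. All 3 conditions held for 352, or 48.8%. Chosen in replicate 2, the regions numbered 698, and 50.4% met all 3 conditions in replicate 1. Membership of a single region was therefore often not stable between replicates, and this was not split by distance from a limit.

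The direction held in the libraries not used for the choice. Of the 722 regions, 721 had a lower fold in Day3 and Day10 replicate 2 than in Day0 replicate 2, counting a region not listed as lower. All 698 of the reverse choice did. A lower fold on both later days was common among Day0-strong regions as a whole, at 70.3% of the 45155 in replicate 1 and 70.7% in replicate 2, and at 56.1% and 56.4% of those with a worse Day0 rank over 40000. None of either set was strong in the Day3 library that had not chosen it. The median fold in the unused replicate 2 libraries was 18.49 at Day0 and, among listed peaks, 6.12 at Day3 and 5.58 at Day10. In the unused replicate 1 libraries these medians were 18.64, 6.12 and 5.76.

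The early-lost regions were compact sites. Their Day0 peaks had median widths of 334 and 339 bases in the 2 libraries, with the middle 50% between 284 and 398 bases in replicate 1. Peaks of the later-lost regions were wider, at 384 and 388 bases for those intermediate at Day3 and 453 and 454 for those still strong. Regions strong in all 6 libraries had peaks of 695 and 701 bases at Day0. Width goes with fold, and among regions with a worse Day0 rank over 40000 the replicate 1 medians were closer, at 328, 355, 367 and 399 bases in the same order.

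The Day0 libraries placed these sites alike. The summits of the 2 Day0 peaks lay a median of 10 bases apart, against 9 over all Day0-strong regions. Within 50 bases were 95.2%, against 89.0% over all Day0-strong regions. Among regions with a worse Day0 rank over 40000 these shares were closer, at 93.9% and 90.4%. The shared part of the 2 peaks had a median of 0.895 of their union, against 0.906 over all Day0-strong regions. A broad member was rare. The widest lay on chromosome 13 from 6305430 to 6306573, 1144 bases, with Day0 folds of 19.81 and 19.64, a fold of 6.67 in each Day3 library, and Day10 folds of 6.24 and 5.11. The next were on chromosome 8 from 10679415 to 10680432, with Day0 folds of 20.97 and 28.89 and 6.67 in each Day3 library, and on chromosome 17 from 29011796 to 29012782, with 23.3 and 26.0, then 5.0 and 6.12, and no listed peak at Day10.

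Early-lost regions were found on all 20 chromosomes used, and no chromosome held most of them. Chromosome 5 had 28, chromosome 1 had 27, chromosomes 6 and 9 had 26 each and chromosome 12 had 7. As a share of the Day0-strong regions, they ranged from 0.483% on chromosome 12, with an exact binomial interval of 0.194% to 0.992%, to 1.22% on chromosome 3, with 0.785% to 1.81%. These extremes were picked after the values were seen, and their intervals overlap. The share on chromosome X, 0.843%, was near the 0.78% over all chromosomes.

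Most early-lost regions stood alone. The median distance to the nearest other early-lost region was 1.73 megabases, and 27 of the 352 had another within 100 kilobases. Of the windows of 1 megabase that held any, 291 held 1, 26 held 2 and 3 held 3. The tightest of these groups of 3 lay on chromosome 19. Its members ran from 10312888 to 10313395, from 10321225 to 10321590 and from 10341257 to 10341682. Their folds were 26.8 and 25.42, 20.39 and 20.8, and 22.14 and 24.27 at Day0, and between 5.56 and 6.67 in each Day3 library. At Day10 the first was listed only in replicate 2, at 4.18, while the second had 5.28 and 4.18 and the third 6.24 and 6.04. The megabase around them held 67 Day0-strong regions, of which 11 were lost by Day10.

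The other groups of 3 lay on chromosome 6 and were more spread. In the megabase from 99000001, which held 51 Day0-strong regions with 9 lost by Day10, the early-lost regions began at 99236759, 99397616 and 99717540. The first went from 19.22 and 18.49 to 6.12 and 5.56 by Day3 and to 5.28 and 3.72 by Day10. The second, with 20.39 and 25.42, then 6.67 in both Day3 libraries, then 7.2 and 7.44, was a little higher at Day10 than at Day3. The third, with 16.89 and 17.33, then 4.45 in both Day3 libraries, was not listed at Day10. In the megabase from 117000001, with 55 Day0-strong regions and 14 lost, they began at 117048739, 117273921 and 117857483. The first and the second of these were not listed at Day10, and the third had 19.22 and 19.07 at Day0 and 5.28 and 4.18 at Day10.

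From an early-lost region, the nearest region strong in all 6 libraries lay at a median distance of 13.0 kilobases. It lay within 5 kilobases for 26.7% of the early-lost regions. These distances were longer for regions lost later, with medians of 19.2 kilobases for those intermediate at Day3 and 26.9 kilobases for those still strong, and 11.5 kilobases between regions strong in all 6 libraries. The density of Day0-strong regions differed in the same order. Within 100 kilobases there were 7.83 others per early-lost region, 6.8 and 5.97 for the regions lost later, and 8.91 for those strong in all 6 libraries. The distances were not separated from this density.

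Among the other Day0-strong regions within 100 kilobases of an early-lost region, 409 of 2757, or 14.8%, were lost by Day10. The share was 10.8% around all Day0-strong regions and 9.74% around regions strong in all 6 libraries. It was 14.7% around regions lost by Day10 that were intermediate at Day3 and 16.7% around those still strong at Day3, so a raised share is shared by all 3 classes of lost region. Within 10 kilobases the share around early-lost regions was 17.8%, or 65 of 366 neighbours, and within 500 kilobases it was 13.0%. Neighbours that were themselves out at Day3 were few, 34 of the 2757, or 1.23%, against 0.891% around all Day0-strong regions, and within 500 kilobases the order was the other way, at 0.803% against 0.858%. Neighbours are counted once for each region they lie near and are not independent, and these shares were not tested.

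**Figure D5:**
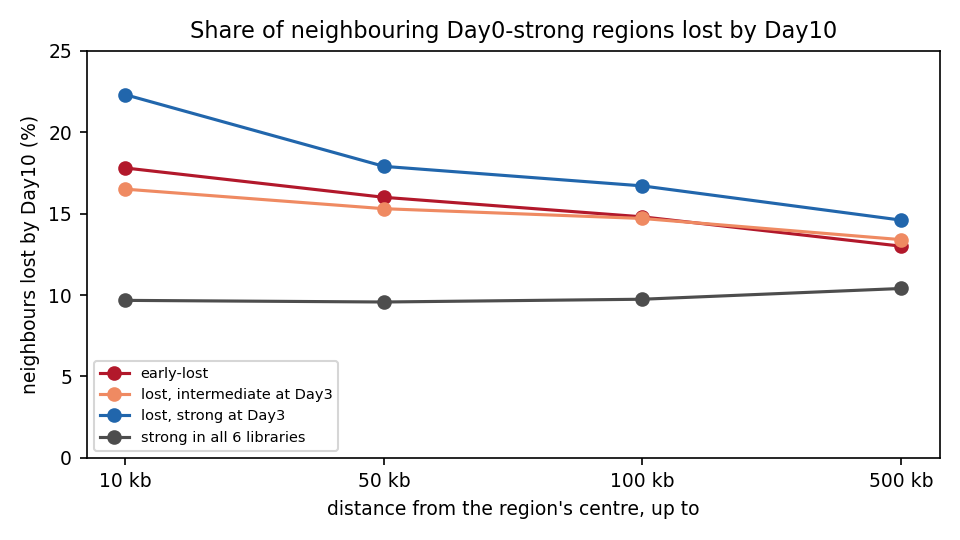
Share (%) of other Day0-strong regions that were lost by Day10, by distance from the centre of early-lost regions, of the 2 classes lost later and of regions strong in all 6 libraries. Around early-lost regions it goes from 17.8% within 10 kilobases to 13.0% within 500 kilobases, close to the intermediate class and above the 9.57% to 10.4% around regions strong in all 6 libraries.

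Regions gained by Day10, out at Day0 and strong in both Day10 libraries, were somewhat sparser near early-lost regions. Within 100 kilobases there were 1.17 per early-lost region, against 1.46 around all Day0-strong regions and 1.59 around those strong in all 6 libraries. Around the regions lost later there were 1.03 for those intermediate at Day3 and 0.88 for those still strong at Day3. Within 10 kilobases the order differed, with 0.0795 per early-lost region, 0.089 and 0.0579 around the regions lost later and 0.149 around all Day0-strong regions.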

How the data were processed

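Each of the 6 ATAC-seq libraries (Day0, Day3 and Day10, 2 each, grouped by sample title) has 1 narrowPeak list that the authors deposited, made from that library alone. Its fold ratio, -log10 p, -log10 q and integer score are the authors' deposited values. The submitters' processing notes name Trim Galore and mm10. An aligner, a peak caller with its settings and a Tn5 shift were not given in the sources used here. The lists' scaffold names belong to GRCm39. Promoter windows of the GRCm38.p6 table overlapped strong Day0 peaks in 4.3% and 4.29% of cases, against 2.75% when shifted by 1 megabase, so that table was not used. The planned gene, promoter and motif results were not run, and no sequence is printed.

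Peaks were ordered by fold, with ties by chromosome and start. Regions share at least 1 base with a peak, and their best-ranked peak was used. Strong means the top 50000 in both libraries of a day, out means none of the top 100000 in either. Pileups came from the fold steps, with the assumed plus 1, and were whole numbers within 0.01 in 100% of peaks. The code was tested on simulated data. Python 3.11.15, NumPy 2.4.6, pandas 2.3.3 and SciPy 1.17.1 were used.

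The regions, classes and named positions (the 10 strongest, the 5 strongest never listed later, those at each limit, in the 3 fullest windows of 1 megabase and the 3 widest) were chosen with earlier results of these data known. No p-value was computed, because the folds of all 6 libraries chose the regions, and an exact permutation of 2 libraries against 2 cannot pass 0.05. Other ranks, orders, overlap rules and left-out libraries were tried. Total read numbers were not used here. Intervals are exact binomial at 95%.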

Additional observations from a re-analysis of the deposited data

How the results depend on the processing

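The number of early-lost regions follows the limits chosen. It was 352 as reported, 74 with strong at Day0 set to the top 40000, 1010 with out set beyond rank 80000, 150 beyond rank 120000, 22 when no peak could be listed, 5109 with no gap between ranks, 685 with equal folds in all libraries (16.52 or more for strong, under 8.21 for out), and 6220 without both Day3 libraries, which asks only for loss by Day10. Leaving out each library in turn gave 356 to 504. Each such setting drops a condition, so the count could only rise. The share out at Day10 of regions chosen from Day0 and Day3 was 86.9%, and 82.2% with the top 40000, 73.3% when no peak could be listed (22 of 30 regions) and 75.0% with equal folds. It was 84.7% to 88.6% without each library. The share that held in the replicate not used was 48.8%, and 37.9% with the top 40000, 57.5% beyond rank 80000, 43.1% when no peak could be listed, 71.9% with no gap and 56.8% with equal folds. The share of early-lost regions listed was lower at Day10 than at Day3 in each setting run, among them the top 40000 (62.2% against 89.9%) and equal folds (53.3% against 91.5%). Loss among neighbours within 100 kilobases was higher near early-lost regions than near all Day0-strong regions in each of the 18 settings compared, the reported one included, for example 9.68% against 7.63% with the top 40000 and 11.0% against 8.14% with equal folds. No paired analysis was possible because no result here comes from a test. Depth limits single regions: with pileups as read here, a fold of 6.67 at Day3 rests on 11 reads. The settings without Day3 or without Day10 libraries and that on tied chromosomes were added after seeing the data.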

Other observations

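A small set of regions left the strong class at Day3 and came back. Of the 405 regions strong at Day0 and out in both Day3 libraries, 10 were strong in both Day10 libraries, and all 10 are described here because of that pattern. The highest at Day10 lay on chromosome 5 from 74636440 to 74637004. Its folds went from 21.55 and 20.8 to 5.56 and 6.67 by Day3 and to 33.1 and 32.54 by Day10, so both Day10 values were above both Day0 values. The same order of days was seen on chromosome 11 from 53909012 to 53909369, with 20.97 and 18.49, then 6.12 and 5.0, then 24.47 and 26.49, and from 88505804 to 88506149, with 18.06 and 17.91, then 4.45 and 3.89, then 23.99 and 24.63. On chromosome 17 from 15035643 to 15036741 the Day10 folds of 23.99 and 25.56 lay within the Day0 folds of 21.55 and 27.16. On chromosome 2 from 166093456 to 166094058 they were 21.11 and 22.31, below the Day0 folds of 26.8 and 23.11, after 5.0 and 6.12 at Day3. The other 5 had Day3 folds from 4.45 to 6.67 and Day10 folds from 17.75 to 25.1. Both Day10 folds were above both Day0 folds on chromosome 4 from 138988825 to 138989464 and from 129942855 to 129943343. The same held on chromosome 10 from 116766026 to 116766325. They were below both Day0 folds on chromosome 6 from 71395826 to 71396464, and between them on chromosome 10 from 69766373 to 69766784.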
